A study of Mus musculus with 2 samples.

Results

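The contactin-associated protein family was followed across the cell types of the embryonic mouse cortex through 6 of its genes, *Cntnap2*, *Cntnap3*, *Cntnap4*, *Cntnap5a*, *Cntnap5b* and *Cntnap5c*, out of 32285 genes counted. The 6 genes were picked on measured values of these libraries, because single members led interneuron or deep-layer groups of cells. Their levels across cell classes are therefore given as a description without a test, and tests were kept to steps of the excitatory lineage outside the named interneuron and layer 6 classes.

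Cntnap proteins are neurexin-related cell adhesion proteins with a single membrane span. They bind contactins, which are anchored to the cell surface by a lipid, and the best-studied members gather potassium channels beside the nodes of Ranvier in myelinated axons. In the developing brain they are studied for roles in neuronal migration, in inhibitory circuits and in synapse formation, and *CNTNAP2* is a gene associated with autism and epilepsy in humans.

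The cortices of 2 E16.5 embryos were dissociated and profiled by droplet-based single-cell RNA sequencing (10x Genomics 3′ chemistry), with 1 library for each embryo. Both embryos were labelled WT, carried the name EoMltt3 in their labels and came from mice described as C57BL/6J, so that no genotype or treatment was compared and the only replicates were embryo 4 and embryo 5. The labels name the tissue as brain hemispheres. The study used such cells to ask which signals pass between interneurons and cortical progenitors.

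The libraries held 12825 and 12289 cell barcodes with 124318613 and 117679925 unique molecular identifiers (UMIs, each standing for 1 captured RNA molecule), and 46 barcode sequences occurred in both. After filtering, 9932 and 10416 cells remained, with a median of 10029.5 and 8830 UMIs. Cells were grouped into 29 clusters, of which 23 were named after marker genes. The 6 unnamed clusters held 20.2% of the cells of embryo 4 and 21.3% of embryo 5. UMIs were summed for each class and embryo and scaled to a total of 1000000 (counts per 1000000, CPM), and 11 classes had at least 20 cells in each embryo. Fewer cells that express a gene and less of its RNA in each cell cannot be told apart in such sums. Glutamatergic *Neurod6* stood at 1074.6 and 1028.8 CPM in layer 6 neuron-like cells, against 33.4 and 17.0 CPM in interneuron-like cells of medial ganglionic eminence (MGE) origin, where the GABA-synthesising *Gad2* reached 662 and 703 CPM.

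All 6 genes are long, as their positions in the mm10 assembly (RefSeq, GRCm38.p6) show. *Cntnap2* spans 2241 kb of chromosome 6 (chr6:45060061-47301393), *Cntnap5a* 903 kb of chromosome 1 (chr1:115684737-116587323) and *Cntnap5b* 718 kb of the same chromosome (chr1:99772246-100490599). *Cntnap5c* spans 649 kb (chr17:57769074-58417953), *Cntnap4* 313 kb (chr8:112569798-112882707) and *Cntnap3*, the only member on the reverse strand, 166 kb (chr13:64737591-64904029). The remaining family gene, *Cntnap1*, is 16.1 kb long. No other counted gene overlaps a member on its own strand in the GENCODE annotation. The members' transcripts share little sequence: of the distinct 30-base stretches in *Cntnap5b* transcripts, 2.92% also occur in *Cntnap5c* and 2.37% in *Cntnap5a*, and these were the largest overlaps of *Cntnap5b* with any family gene. A read that lay wholly within such a stretch could not be assigned to 1 gene with certainty. How many reads did so was not measured.

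The RefSeq promoter table of the same build held 3 members, each with a different leading cell class below. Which annotated start is used in a class was not measured. The bases ahead of the outermost annotated start of each gene are shown 5′ to 3′ on the gene's strand, with CG dinucleotides in capitals. They lie at chr6:45059811-45060060 (forward) for *Cntnap2*, at chr13:64904030-64904138 (reverse) for *Cntnap3* and at chr1:99772151-99772245 (forward) for *Cntnap5b*.

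Cntnap2: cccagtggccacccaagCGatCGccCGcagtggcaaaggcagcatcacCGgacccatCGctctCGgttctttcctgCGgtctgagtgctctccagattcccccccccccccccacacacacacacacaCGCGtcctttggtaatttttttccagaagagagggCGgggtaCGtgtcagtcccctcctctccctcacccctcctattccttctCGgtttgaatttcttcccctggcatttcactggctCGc

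Cntnap3: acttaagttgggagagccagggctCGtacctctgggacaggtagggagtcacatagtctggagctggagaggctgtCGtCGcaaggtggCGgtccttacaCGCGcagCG

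Cntnap5b: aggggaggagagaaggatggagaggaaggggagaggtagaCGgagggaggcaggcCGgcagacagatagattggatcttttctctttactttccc

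The full windows of 300 bases that hold these stretches had 14 CG dinucleotides in *Cntnap2*, 11 in *Cntnap3* and 14 in *Cntnap5b*. A second *Cntnap2* window, inside the gene at chr6:47244146-47244445, held only 3. The median over 32851 promoter windows was 7. The homeodomain core TAATTA, the T-box core AGGTGT and the E-box CAGATG were searched on both strands, and none of these 3 words occurred in the windows of the 3 genes. Over all windows, 5.29%, 13.7% and 17.2% held them. The words do not overlap each other.

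Among the 11 classes, 3 members had their highest summed level in MGE interneuron-like cells, and each of the other 3 peaked in a class of its own. *Cntnap3*, *Cntnap4* and *Cntnap5c* were highest in MGE interneuron-like cells, *Cntnap2* in Cajal-Retzius neuron-like cells, *Cntnap5a* in GABAergic neuron-like cells of lateral ganglionic eminence (LGE) type and *Cntnap5b* in layer 6 neuron-like cells. For each of the 6 genes the leading class lay above the next in both embryos. These peaks are what the genes were chosen for and carry no test.

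**Figure D1:**
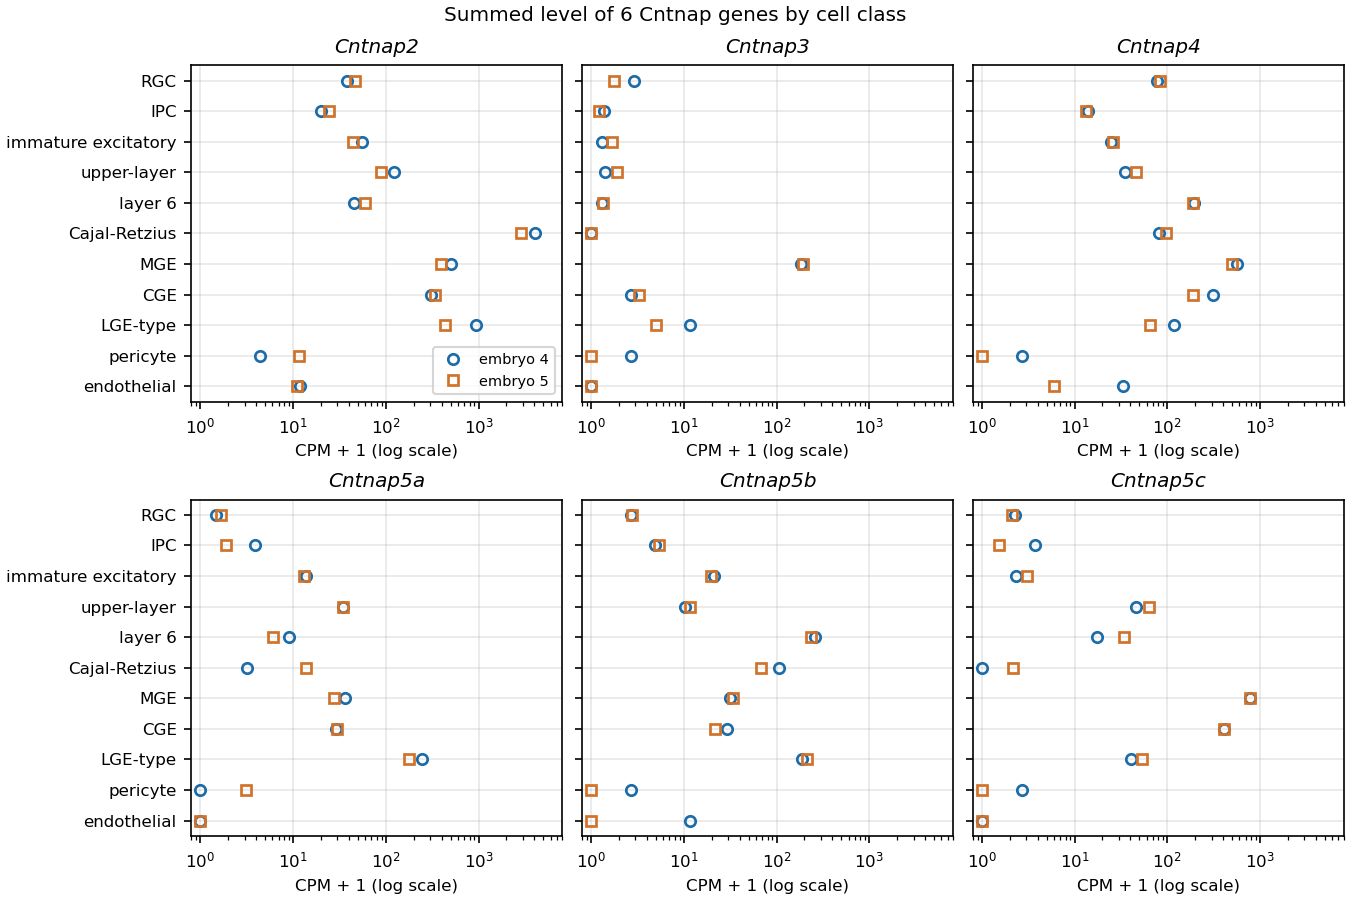
Summed level of each *Cntnap* gene (x axis, CPM + 1 on a log scale) in 11 cell classes (y axis), with 1 point for embryo 4 and 1 for embryo 5. *Cntnap3* stands near 190 CPM in the MGE class with every other class under 11 CPM, while *Cntnap2* stands at 4055 and 2877 CPM in the Cajal-Retzius class and under 1000 CPM in all others.

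*Cntnap3* was nearly limited to a single class. It measured 184 CPM in embryo 4 and 193 CPM in embryo 5 in the 686 and 655 MGE interneuron-like cells (189 ± 6.45, SD, n = 2). LGE-type cells followed with 10.6 and 4.0 CPM, and interneuron-like cells of caudal ganglionic eminence (CGE) origin had 1.7 and 2.3 CPM. The MGE class held 89.9% and 93.1% of all *Cntnap3* UMIs in kept cells of the embryos. In Cajal-Retzius neuron-like cells no UMI was counted, which allows up to 3.23 and 3.45 CPM.

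*Cntnap5c* was also highest in MGE interneuron-like cells, at 771 and 773 CPM (772 ± 1.62, SD, n = 2). CGE interneuron-like cells had 404 and 407 CPM, and the next class, upper-layer neuron-like cells, only 45.1 and 62.2 CPM. The fold between the MGE and CGE classes was 1.91 in embryo 4 and 1.90 in embryo 5. The gene thus ranked the MGE class over the CGE class and both far over all others, with LGE-type cells at 39.6 and 52.6 CPM. When clusters were drawn at resolution 2, the CGE class came out higher, with a mean of 819 CPM against 772 CPM.

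*Cntnap4*, a gene studied for its part in GABA release by interneurons, was broader. Choroid plexus-like cells, too few in embryo 5 to enter the order, had 552 and 529 CPM, within the range of the MGE class. Among the 11 classes of the order, MGE interneuron-like cells led with 561 and 496 CPM (528 ± 46.0, SD, n = 2). CGE interneuron-like cells followed with 314 and 191 CPM, and layer 6 neuron-like cells with 195 and 189 CPM, so that these classes overlapped between the embryos. LGE-type, Cajal-Retzius neuron-like and radial glial cell (RGC)-like cells were not apart from each other, with means of 91.3, 88.2 and 79.1 CPM. In RGC-like cells, the progenitors that line the ventricle, *Cntnap4* measured 76.5 and 81.8 CPM and therefore exceeded its level in intermediate progenitor cell (IPC)-like cells, at 12.9 and 12.3 CPM.

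*Cntnap2* RNA was concentrated in Cajal-Retzius neuron-like cells, the early-born Reelin-secreting neurons of the marginal zone. It measured 4055 CPM in the 61 cells of embryo 4 and 2877 CPM in the 67 cells of embryo 5 (3466 ± 833, SD, n = 2). LGE-type cells came next with 932 and 434 CPM, overlapping with MGE interneuron-like cells at 504 and 391 CPM. CGE interneuron-like cells had 306 and 336 CPM. In excitatory classes the level was lower, from 123 and 88.4 CPM in upper-layer neuron-like cells to 18.8 and 23.6 CPM in IPC-like cells, and layer 6, immature excitatory and RGC-like cells were not apart from each other. The Cajal-Retzius class made up 0.614% and 0.643% of the kept cells but held 20.7% and 19.2% of their *Cntnap2* UMIs.

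*Cntnap5a* led in LGE-type GABAergic neuron-like cells, with 246 CPM in embryo 4 and 178 CPM in embryo 5 (212 ± 48.1, SD, n = 2). This was 7.37 and 5.32 times the upper-layer class, which had 33.3 and 33.4 CPM. Upper-layer and MGE classes overlapped, as did MGE and CGE classes, with means of 33.3, 31.0 and 28.4 CPM. Unnamed clusters held 40.5% and 56.9% of the *Cntnap5a* UMIs, a larger share than any class, so that the order of classes leaves much of this gene's RNA out. At resolution 0.5 no LGE-type class was named, and the highest of the 10 remaining classes was then MGE, with 31.0 CPM.

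*Cntnap5b* was highest in layer 6 neuron-like cells, the deep-layer excitatory neurons that project largely to the thalamus. It measured 261 and 235 CPM there (248 ± 18.7, SD, n = 2), and LGE-type cells had 187 and 211 CPM. The fold between these classes was 1.40 in embryo 4 and 1.11 in embryo 5. Cajal-Retzius neuron-like cells followed with 106 and 66.7 CPM, while MGE interneuron-like cells, which led for other members, had 30.6 and 32.6 CPM. Layer 6 neuron-like cells held 58.9% and 55.0% of the *Cntnap5b* UMIs. Their level moved with the processing, up to a mean of 445 CPM with a minimum of 500 detected genes per cell, though the class stayed the highest in every alternative run.

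*Cntnap1*, the family gene known from the paranodal junction of myelinated axons, is not among the 6 members and gave only 29 and 23 UMIs in all kept cells. Its level was at most 0.496 CPM in each embryo in GABAergic, excitatory and progenitor classes, with 2 UMIs in Cajal-Retzius neuron-like cells of embryo 4. Pericyte-like cells had 11.9 and 4.26 CPM from 7 and 2 UMIs.

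Single clusters within a class differed in *Cntnap* RNA. The layer 6 neuron-like class joined a cluster led by *Hs3st4* and a cluster led by *Kirrel3*. The *Kirrel3* cluster had no layer 6 marker among its leading genes, and its layer identity was less clear. *Fezf2*, a layer 5 marker of the naming list, stood there at 347 and 326 CPM against 178 and 167 CPM in the *Hs3st4* cluster. The layer 6 marker *Tbr1* stood at 197 and 181 CPM against 298 and 257 CPM. Layer 5 cells are therefore not shown to be absent from the layer 6 class. In the *Hs3st4* cluster *Cntnap5b* measured 432 and 383 CPM, and in the *Kirrel3* cluster 69.6 and 67.8 CPM. *Cntnap4* followed the same order, with 296 and 289 CPM against 83.3 and 76.3 CPM. *Cntnap5c* ran the other way, with 9.20 and 8.79 CPM in the *Hs3st4* cluster and 24.6 and 59.7 CPM in the *Kirrel3* cluster. The peak of *Cntnap5b* in layer 6 neuron-like cells was therefore a peak of the *Hs3st4* cluster. *Cntnap5b* was among the 10 leading genes of that cluster, which repeats the pattern the members were picked for.

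The upper-layer neuron-like class was likewise a mixture, of a cluster led by *Cdh12* and a cluster led by *Gm49678* and *Kcnq5*. *Cntnap2* measured 21.3 and 22.3 CPM in the *Cdh12* cluster against 215 and 141 CPM in the *Gm49678* cluster. *Cntnap5c* had 2.09 and 2.71 CPM against 84.2 and 109 CPM, and *Cntnap5a* 11.1 and 11.3 CPM against 53.5 and 50.8 CPM. *Gad1* and *Gad2* were at most 1.97 CPM in both clusters and both embryos. The layer identity of the *Gm49678* cluster was less clear. *Cux2*, a marker of upper layers, stood at 54.6 and 84.4 CPM there against 286 and 293 CPM in the *Cdh12* cluster, and *Fezf2*, a marker of deep layers, at 152 and 117 CPM against 38.8 and 25.0 CPM. Deep-layer cells are therefore not shown to be absent from the upper-layer class.

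The unnamed clusters held the highest *Cntnap5a* and some of the highest *Cntnap4* levels of glutamatergic neurons. A cluster led by *Tafa1* and *Tafa2*, with *Neurod6* at 515 and 506 CPM and *Gad1* at 0.823 and 0.801 CPM, had 127 and 179.5 CPM of *Cntnap5a*. The same cluster had 411 and 303 CPM of *Cntnap2* and 225 and 178 CPM of *Cntnap4*. A cluster led by *Grin2a* and *Tshz2* had 256 and 234 CPM of *Cntnap4*. These clusters met no class name and are described by their leading genes only.

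**Figure D2:**
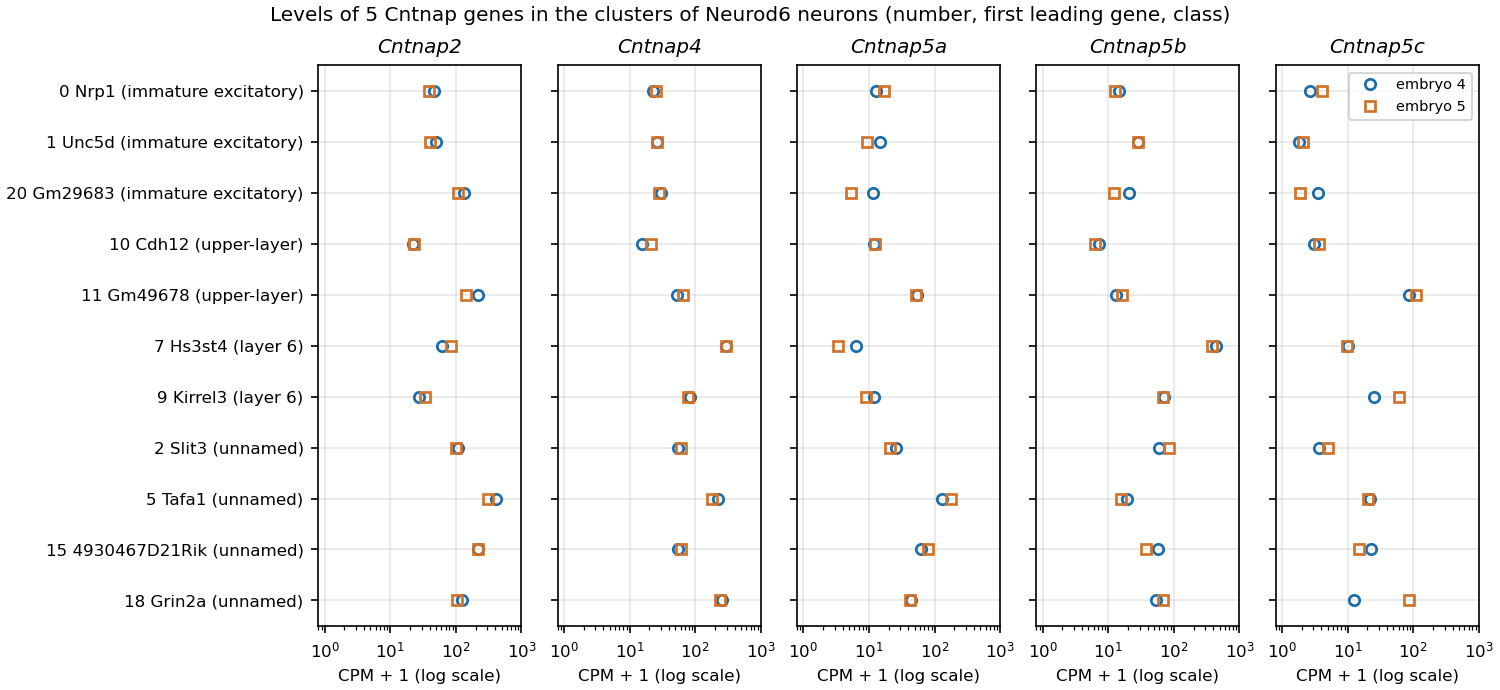
Level of 5 *Cntnap* genes (x axis, CPM + 1 on a log scale) in the clusters of *Neurod6*-expressing neurons (y axis, cluster number with its first leading gene and its class), with 1 point for each embryo. *Cntnap5b* peaks in the *Hs3st4* cluster at 432 and 383 CPM, *Cntnap5a* in the *Tafa1* cluster and *Cntnap5c* in the *Gm49678* cluster, where the embryos stand at 84.2 and 109 CPM.

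MGE interneuron-like cells were also split by whether a cell held a UMI of *Sst*, the somatostatin gene of a main interneuron subtype. In embryo 4, 278 cells held one and 408 did not, and in embryo 5 the numbers were 278 and 377. Cells with an *Sst* UMI were deeper, with a median of 7907 and 7094.5 UMIs against 5419 and 5915, and the part of depth in the differences below was not tested. *Cntnap2* measured 690 and 626 CPM with *Sst* and 326 and 171 CPM without it. *Cntnap3* had 233 and 266 CPM against 137 and 126 CPM. *Cntnap5a* (54.3 and 33.3 against 16.8 and 20.8 CPM) and *Cntnap5b* (41.6 and 51.4 against 20.1 and 15.04 CPM) lay on the same side. The opposite order held for *Cntnap5c*, with 554 and 493 CPM with *Sst* and 979 and 1034 CPM without it, and for *Cntnap4*, with 457 and 420 CPM against 660 and 566 CPM. For none of the 6 genes did the embryos' values with *Sst* overlap with those without it. The split was not tested.

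**Figure D3:**
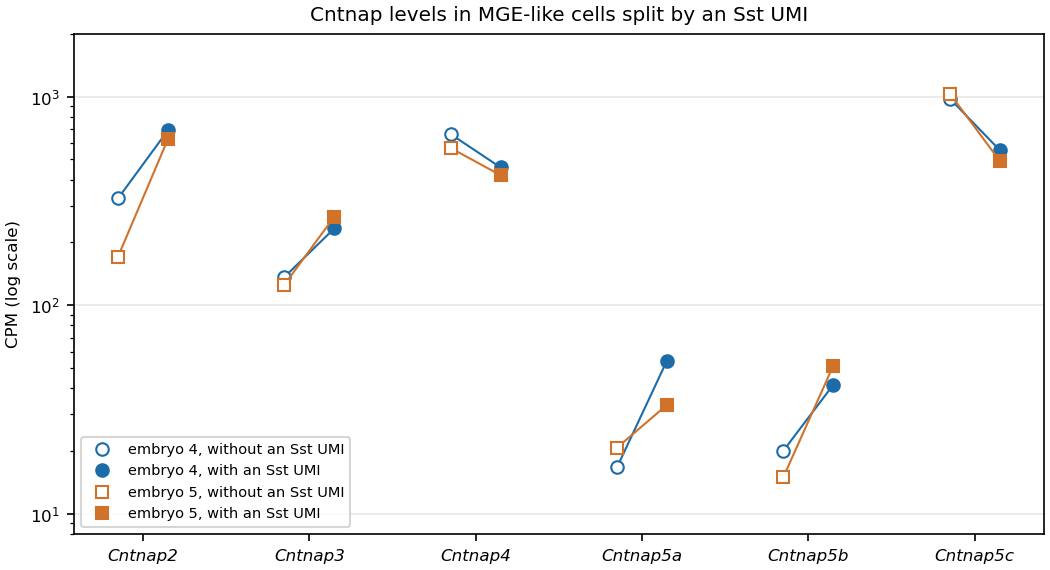
Level of the 6 *Cntnap* genes (y axis, CPM on a log scale) in MGE interneuron-like cells without (open) and with (filled) a UMI of *Sst*, with lines joining the values of 1 embryo. *Cntnap2*, *Cntnap3*, *Cntnap5a* and *Cntnap5b* rise toward cells with *Sst* in both embryos, while *Cntnap4* and *Cntnap5c* fall, the latter from 979 and 1034 to 554 and 493 CPM.

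At the level of single cells, members differed in how many cells of their leading class they reached. A UMI of *Cntnap2* was found in 98.4% (exact 95% binomial interval 91.2 to 99.96%) and 100% (94.6 to 100%) of Cajal-Retzius neuron-like cells, with a median of 52 and 24 UMIs in each cell. *Cntnap5c* was found in 77.0% (73.6 to 80.1%) and 79.2% (75.9 to 82.3%) of MGE interneuron-like cells, *Cntnap4* in 70.6% and 64.6%, and *Cntnap3* in 40.1% and 41.1%. *Cntnap5b* was seen in 47.7% and 42.8% of layer 6 neuron-like cells, and *Cntnap5a* in 26.3% and 17.97% of LGE-type cells, although a single LGE-type cell held up to 70 and 72 UMIs. *Cntnap5a* RNA was thus seen in a minority of the cells of its leading class at this depth, whereas *Cntnap2* was detected in all but 1 Cajal-Retzius neuron-like cell. The intervals cover counting error only.

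Droplets also take up free RNA. In pericyte-like cells, which served as a class with little *Cntnap* RNA, a UMI of *Cntnap3*, *Cntnap4*, *Cntnap5a*, *Cntnap5b* or *Cntnap5c* occurred in 0 to 2.22% of the cells of each embryo and 1 of *Cntnap2* in 3.92% and 8.89%, at median depths of 10549 and 10156 UMIs. *Cntnap3*, *Cntnap5a* and *Cntnap5c* shares of RGC-like and IPC-like cells, from 0.186% to 1.64%, lay within that range and are read as background. So did *Cntnap5b* in RGC-like cells, with 1.78% and 1.53%, while IPC-like cells had 2.70% and 2.14%. *Cntnap4* in RGC-like cells, with 32.0% and 31.8%, lay far above it.

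When each cell was thinned to 2000 UMIs, leaving out at most 29 cells of a class and embryo, the shares in the leading classes fell but kept their places above all other classes of the order. *Cntnap5c* remained in 59.0% and 60.6% of MGE interneuron-like cells, ahead of 26.2% and 25.1% of CGE interneuron-like cells. *Cntnap5a* came to 16.5% and 9.41% of LGE-type cells. In thinned MGE interneuron-like cells, 57.2% and 53.3% held UMIs of at least 2 different members and 17.9% and 13.9% of at least 3. In thinned layer 6 neuron-like cells the share with at least 2 members was 13.6% and 12.7%, and in Cajal-Retzius neuron-like cells 21.3% and 19.4%, where *Cntnap2* alone accounted for nearly all cells with a member.

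The members did not share a common order of classes. Across the means of the 11 classes, on a log2(CPM + 10) scale, the correlation between members ranged from 0.118 for *Cntnap3* and *Cntnap5b* to 0.783 for *Cntnap4* and *Cntnap5c*. The points share the same libraries and differ in depth and cell number, so the coefficients are a description.

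The same measure over 7033 genes named the genes whose order of classes was most like each member. *Cntnap3* resembled *Cacng3* (Pearson's r = 0.991), *Nxph2*, a neurexin ligand (0.990), and *Sst* itself (0.967). *Cntnap2* was followed by *Tle5* (0.968), *Tmem200a* (0.960) and *Hdac11* (0.959), all with their highest level in Cajal-Retzius neuron-like cells. *Cntnap4* resembled *Amph* (0.942), *Dpp6* (0.903), which encodes a subunit of potassium channels, and *Arl4c* (0.881). *Cntnap5a* resembled *Efnb3* (0.907), *Tafa1* (0.907) and the neurofilament gene *Nefm* (0.902). *Cntnap5b* resembled *Caly* (0.948), *Tmem132d* (0.926) and the ion channel gene *Trpm3* (0.897), and *Cntnap5c* the postsynaptic scaffold gene *Dlgap2* (0.942), *Fgd3* (0.938) and *Gm47027* (0.936). Of these 18 genes, 10 were again among the leading 3 in embryo 4 alone and 11 in embryo 5 alone. The least stable was *Tle5*, at rank 37 and 107 in the single embryos.

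To see how the family changes as excitatory neurons form, neighbouring steps from RGC-like to IPC-like, immature excitatory and upper-layer neuron-like cells were compared over the 2 embryos. Each step was tested with edgeR's quasi-likelihood test and Benjamini-Hochberg adjustment over 15923 genes, in a fit of the sums of all 11 classes. A gene with an adjusted p under 0.05 was called. The family and its partners had no part in the clustering, but the classes were drawn from the same cells. Steps that meet in a class share its sums.

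From RGC-like to IPC-like cells, *Cntnap4* fell most clearly. It went from 76.5 and 81.8 CPM to 12.9 and 12.3 CPM, a log2 fold change of -2.57 ± 0.22 (SE, edgeR adjusted p = 1.85e-09). *Cntnap2* fell from 36.9 and 45.3 CPM to 18.8 and 23.6 CPM (-0.88 ± 0.28, edgeR adjusted p = 0.0131). For both genes the embryos of one class did not overlap with those of the other. *Cntnap3* gave 29 and 11 UMIs in RGC-like and 4 and 2 UMIs in IPC-like cells, and missed the filter on low counts when only the 2 classes of a step were fitted. It entered the fit of all classes with the 859 and 842 UMIs of the MGE class it was chosen for, so no test of it is given in any step. *Cntnap5b* rose from 1.67 and 1.77 CPM to 3.88 and 4.36 CPM (1.32 ± 0.28, edgeR adjusted p = 0.000435). This call rested on 25 and 26 UMIs in RGC-like and 41 and 40 UMIs in IPC-like cells. The share of RGC-like cells with a *Cntnap5b* UMI was read as background above.

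*Cntnap5a* was called higher in IPC-like cells (1.78 ± 0.59, edgeR adjusted p = 0.0174) on 30 and 8 UMIs against 7 and 10, in shares of cells read as background above. Embryo 4 carried this, with 2.84 against 0.468 CPM, while embryo 5 had 0.872 against 0.683 CPM. The call was lost in 4 of 12 alternative fits, and with doublets kept the direction turned, to -0.59 (edgeR adjusted p = 0.468). With doublets kept or a minimum of 500 detected genes the *Cntnap5b* call was lost too. *Cntnap5c* was not called (0.60 ± 0.65, edgeR adjusted p = 0.477). Of the 5 members other than *Cntnap3*, 2 were higher and 2 lower, where 23.7% and 24.1% of all tested genes were called higher and lower.

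From IPC-like to immature excitatory neuron-like cells, the newborn neurons on their way to the cortical plate, 4 members rose and none was called lower. *Cntnap5a* went from 2.84 and 0.872 CPM to 12.7 and 12.1 CPM (2.86 ± 0.33, edgeR adjusted p = 2.45e-07). *Cntnap5b* rose to 20.3 and 18.5 CPM (2.42 ± 0.18, edgeR adjusted p = 2.18e-10). *Cntnap2* rose to 54.2 and 42.9 CPM (1.39 ± 0.28, edgeR adjusted p = 0.000313) and *Cntnap4* to 23.9 and 24.8 CPM (1.13 ± 0.23, edgeR adjusted p = 0.000346), so that *Cntnap4* stayed below its RGC-like level in both embryos. *Cntnap5c* remained under 3 CPM and was not called (0.17 ± 0.58, edgeR adjusted p = 0.852). Over all genes, 24.2% were called higher and 18.2% lower. The *Cntnap4* call was lost with a minimum of 500 detected genes (log2 fold change 0.62, edgeR adjusted p = 0.0620).

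From immature excitatory to upper-layer neuron-like cells, *Cntnap5c* changed most. It went from 1.36 and 2.08 CPM to 45.1 and 62.2 CPM (5.01 ± 0.31, edgeR adjusted p = 4.14e-11). *Cntnap5a* rose from 12.7 and 12.1 CPM to 33.3 and 33.4 CPM (1.47 ± 0.20, edgeR adjusted p = 4.90e-06). *Cntnap2* (1.16 ± 0.25, edgeR adjusted p = 0.000962) and *Cntnap4* (0.74 ± 0.20, edgeR adjusted p = 0.00638) were also higher. *Cntnap5b* fell from 20.3 and 18.5 CPM to 9.34 and 10.8 CPM (-0.91 ± 0.15, edgeR adjusted p = 6.56e-05). With 4 members higher and 1 lower, the shares over all genes were 16.1% and 14.7%.

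The 4 higher calls rested on the *Gm49678* cluster, whose *Cux2* and *Fezf2* levels are given above. Members were picked partly for leading deep-layer groups, and deep-layer cells are not shown to be absent from that cluster. These 4 calls may therefore not be independent of the pick. In a fit without it, added after the data were seen, the upper-layer class was the *Cdh12* cluster alone, and none of the 4 was called higher. *Cntnap2* was then called lower (-1.15 ± 0.29, edgeR adjusted p = 0.00552), while *Cntnap5c* (0.50), *Cntnap5a* (-0.15) and *Cntnap4* (-0.48) were not called, with edgeR adjusted p of 0.664, 0.778 and 0.191. The fall of *Cntnap5b* kept its call and was larger (-1.76 ± 0.21, edgeR adjusted p = 6.35e-07). When the *Cntnap* and partner genes were allowed into the clustering, only the fall of *Cntnap5b* kept its call as well. The log2 fold change of *Cntnap5c* was then 1.13 (edgeR adjusted p = 0.0969) and that of *Cntnap2* -0.71 (edgeR adjusted p = 0.0722), and *Cntnap5a* came to 0.0048. With doublets kept, the calls of *Cntnap2*, *Cntnap4* and *Cntnap5a* were lost, and that of *Cntnap4* also with a minimum of 500 detected genes and at resolution 2.

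**Figure D4:**
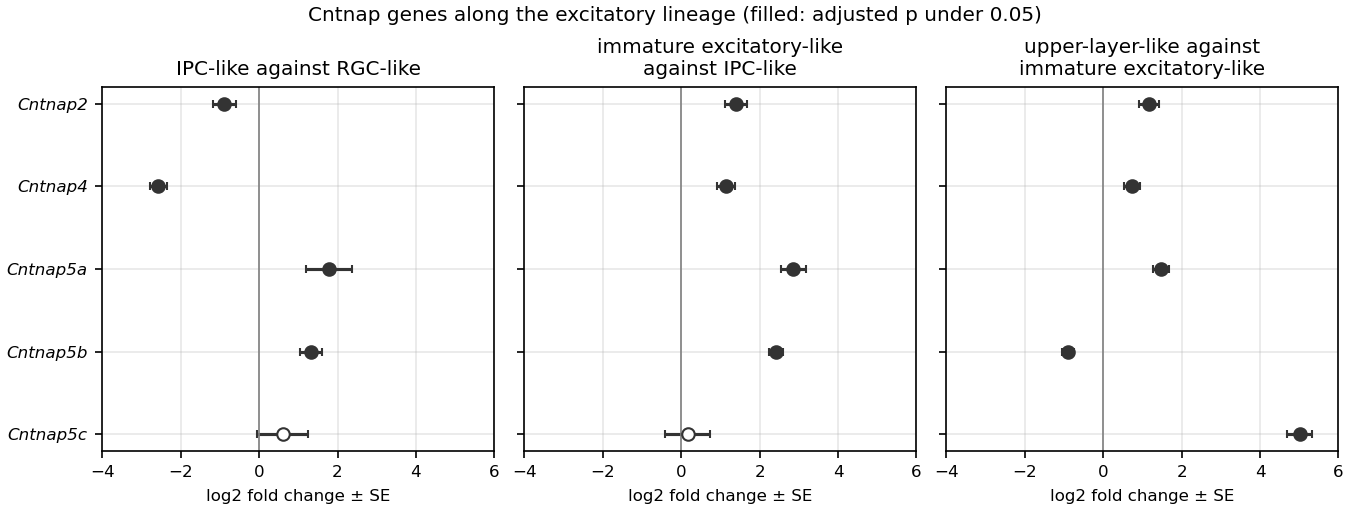
Log2 fold change with its standard error (x axis) of 5 *Cntnap* genes (y axis, *Cntnap3* left out) in 3 neighbouring steps of the excitatory lineage, from edgeR on the sums of 2 embryos. Filled points have an adjusted p under 0.05. *Cntnap4* is lowest in the first panel at -2.57, and *Cntnap5c* highest in the last at 5.01.

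Of the 17 family partners, namely *Cntnap1*, the contactins *Cntn1* to *Cntn6*, potassium channel subunits and scaffold proteins, 6 were higher and 6 lower in IPC-like than in RGC-like cells. Of all tested genes, 23.7% were called higher and 24.1% lower in this step. The partners' median log2 fold change was -0.53 beside -0.01 over all genes. *Cntn5* rose from 7.02 and 3.96 CPM to 60.4 and 78.8 CPM (3.73 ± 0.24, edgeR adjusted p = 1.16e-11), as did *Nfasc* (1.63) and *Cntn2* (1.39). *Cntn3* fell from 48.9 and 44.0 CPM to 5.97 and 5.997 CPM (-2.88 ± 0.16, edgeR adjusted p = 8.66e-12), with *Cntn6* (-2.52) and *Cntn1* (-1.16) on the same side. The fall of *Cntn1* was not called with the embryo as a block (edgeR adjusted p = 0.0533). The rise of *Cntn2* was not called with doublets kept (0.093, edgeR adjusted p = 0.762).

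In the step to immature excitatory neuron-like cells 12 partners were higher and 3 lower, where 24.2% and 18.2% of all tested genes were. The partners' median was 1.01 beside 0.06 over all genes. *Kcna1*, a potassium channel subunit that contactin-associated proteins help to cluster on axons, went from 0.0947 and 0.109 CPM, 1 UMI in each embryo, to 6.03 and 5.83 CPM (5.81 ± 0.52, edgeR adjusted p = 1.19e-08). *Cntn2*, the contactin known to bind the product of *Cntnap2*, went from 10.4 and 11.01 CPM to 235 and 267 CPM (4.74 ± 0.15, edgeR adjusted p = 1.13e-15). *Kcna2* was also higher (3.396), and the 3 lower partners were *Cntn4* (-1.75), *Cntn6* (-1.46) and *Cntn5* (-0.90). The calls of *Cntn4* and *Cntn6* were near the limit (edgeR adjusted p = 0.0414 and 0.0391) and rested on few UMIs. *Cntn4* had 54 and 50 UMIs in IPC-like and 30 and 21 in immature excitatory neuron-like cells. *Cntn6* had 18 and 27 against 21 and 6.

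In the step to upper-layer neuron-like cells 9 partners were higher and 3 lower, where 16.1% and 14.7% of all tested genes were. The partners' median was 0.58 beside -0.01 over all genes. *Cntn1* rose from 2.96 and 3.29 CPM to 47.0 and 51.9 CPM (4.02 ± 0.23, edgeR adjusted p = 1.47e-11), followed by *Cntn3* (2.20) and *Kcna1* (2.08). *Cntn5* (-0.84), *Nfasc* (-0.69) and the scaffold gene *Cask* (-0.37) fell. With the *Cntnap* and partner genes in the clustering, the directions of *Cntn3* (-0.046) and *Nfasc* (0.0012) turned and neither was called. Without the *Gm49678* cluster *Cntn3* lost its call (0.23, edgeR adjusted p = 0.600), *Cntn1* came to 1.82 and *Cntn5* to -3.24.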

How the data were processed

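The authors dissociated cortices and deposited raw UMI counts per gene and barcode. Cell Ranger 7.0.0 and mm10 are given in the submitters' processing notes, while the matrix header carries 7.1.0, and the counting of intron reads is not given in the sources used here.

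Barcodes with fewer than 1000 genes (1772 and 765), then those over 10% mitochondrial counts (174 and 56), and the highest doublet scores at 0.8% per 1000 cells (947 and 1052) were left out. Cells were clustered with 2000 variable genes, 30 principal components, 20 neighbours and Leiden resolution 1 (Python 3.11.15 with scanpy 1.11.5 and leidenalg 0.10.2), without *Cntnap* and partner genes. A cluster took the class whose markers had the highest average log2 ratio inside against outside (CPM with 10 added, at least 0.5, with 3 markers detected in 10% of cells and a margin of 0.25). A name was refused where another class had more markers among the 10 leading genes than its own, and non-GABAergic names where a GABAergic gene led. These 2 parts of the rule were set after seeing the clusters: a stricter rule against ties had left CGE and other clusters unnamed. Of the named clusters, 3 had no own marker among the leading genes and 4 tied with another class. The members, markers and gene lists were chosen with earlier results of these data known.

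Sums were tested with edgeR 4.0.16 (TMM, filterByExpr, quasi-likelihood, R 4.3.3), with DESeq2 1.42.0 as an alternative, on a script tested on simulated data. Each standard error was derived from the fold change and its F statistic. Nothing but the embryo number separates the samples, and both sums of a step come from the same embryos. Deviations of same-embryo sums correlated at 0.202, 0.194 and 0.215 across genes, and the fit with this block changed no call of a member. Named were all members, *Cntnap1*, the 3 genes most like each member, at most 3 partners in each direction and the genes leading a cluster.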

Additional observations from a re-analysis of the deposited data

How the results depend on the processing

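The highest class was kept by all 6 genes under 500 detected genes, a 5% mitochondrial limit, doublets kept, family genes in the clustering, the mean of per-cell CPM and each embryo alone, and by 5 genes at resolution 0.5 and at resolution 2. The mean share of cells with a UMI in the leading class moved with thinning to 2000 UMIs from 99.2% to 95.3% for *Cntnap2*, from 40.6% to 20.6% for *Cntnap3*, from 67.6% to 47.2% for *Cntnap4*, from 22.1% to 12.9% for *Cntnap5a*, from 45.2% to 24.3% for *Cntnap5b* and from 78.1% to 59.8% for *Cntnap5c*. Of the 18 most similar genes, 10 to 11 were kept with 1 embryo left out. Genes called between upper-layer and immature excitatory neuron-like cells numbered 4890, 2560 with *Cntnap* and partner genes in the clustering and 3109 without the *Gm49678* cluster (chosen after seeing the data), while the other counts of called genes stayed within 1.5 times of those reported. In that clustering the log2 fold changes of *Cntnap2* (-0.71), *Cntnap3* (-0.36), *Cntnap4* (-0.17), *Cntn3* (-0.046) and *Nfasc* (0.0012) turned, as those of *Cntnap3* (-0.52) and *Cntnap4* (-0.26) in this step and of *Cntnap5a* in IPC-like cells (-0.59) did with doublets kept. Without the *Gm49678* cluster *Cntnap2* (-1.15), *Cntnap3* (-2.03), *Cntnap4* (-0.48) and *Cntnap5a* (-0.15) turned in this step. The uncalled difference of *Cntnap5c* between immature excitatory and IPC-like cells turned with doublets kept (-1.42), 500 genes (-0.091), family genes in the clustering (-0.095), the 5% limit (-0.20), resolution 2 (-0.048) and resolution 0.5 (-0.042). The cause of the other turns was not tested. With 1 embryo left out no residual degrees of freedom remained, so only log2 ratios were computed, and those of all called members kept their direction. *Cntnap3* missed the filter on low counts when only the 2 classes of a step were fitted. Its fold changes above come from fits of all classes, which it entered with the UMIs of the MGE class it was chosen for. They rest on 4 and 10 UMIs in upper-layer and 6 and 12 in immature excitatory neuron-like cells of the main run. No test of them is given, and no conclusion is drawn from their turns. The replicate block changed no call of a member. It moved the called genes to 8483, 7704 and 6036, from 7613, 6741 and 4890. Levels of under 3 CPM rest on few UMIs, and differences there were near the limit of this depth.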

Other observations

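Choroid plexus-like cells, too few in embryo 5 to enter the order of classes, held *Cntnap4* RNA at 552 CPM in the 30 cells of embryo 4 and 529 CPM in the 15 cells of embryo 5. A UMI of *Cntnap4* was found in 73.3% and 60.0% of them. *Cntnap2* stood there at 264 and 303 CPM, whereas *Cntnap3* gave no UMI in either embryo, which allows up to 9.79 and 25.2 CPM. Microglia-like cells had no *Cntnap2* UMI among 26 and 14 cells, which allows up to 10.98 and 23.9 CPM, and *Cntnap4* measured 7.32 and 15.9 CPM from 2 UMIs in each embryo.

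A small cluster of immature excitatory neuron-like cells led by *Gm29683* had 133 and 106 CPM of *Cntnap2*, against 45.8 and 37.7 CPM in the *Nrp1* cluster and 49.0 and 39.1 CPM in the *Unc5d* cluster of the same class. *Cntnap5b* was 27.8 CPM in both embryos in the *Unc5d* cluster and 13.7 and 11.9 CPM in the *Nrp1* cluster.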
